A study of Mus musculus with 5 samples.

Results

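The epithelial-mesenchymal transition genes examined were 10 genes chosen by name: the epithelial adhesion genes Cdh1 and Epcam, the mesenchymal genes Cdh2, Vim and Fn1, and the transcription factor genes Snai1, Snai2, Zeb1, Zeb2 and Twist1. They were read by 14 of the 41174 gene probes of the array and are 10 of the 18327 genes that could be named on it. 8 of them had 1 probe, and Fn1 and Zeb2 had 3 each. All 10 genes were well above background, by the call of the scanner software, on at least 1 array, as were 13 of the 14 probes.

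The study asked how the malignant program of a cancer cell depends on its state of differentiation, by fusing cancer cells with embryonic stem (ES) cells. Gene expression was measured in 5 cell populations of mouse, each on 1 single-colour Agilent oligonucleotide array. ES was the line E14, and Hepa1-6 was a hepatoma line. EHe was the hybrid of both, made by fusion in polyethylene glycol and selected with 2 drugs, and by the study's account such hybrid lines carried a near-tetraploid chromosome set. EHeD7 and EHeD14 were EHe cells differentiated for 7 and 14 days. ES and EHe were grown with 1000 units/ml leukemia inhibitory factor, which holds ES cells undifferentiated, EHeD7 and EHeD14 without it in medium with 15% fetal calf serum on gelatin, and Hepa1-6 in medium with 10% fetal calf serum, so culture medium and differentiation state were not separated. In the methods the fused ES cells carried a red fluorescent protein and hygromycin resistance and the fused cancer cells a green fluorescent protein and neomycin resistance. Whether the arrayed ES and Hepa1-6 cells carried them, and which hybrid clone was arrayed, was not given in the sources used here.

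In an epithelial-mesenchymal transition, cells held together by E-cadherin junctions loosen them, exchange keratin for vimentin filaments and lay down fibronectin. Factors of the Snail, Zeb and Twist families drive the change, and Snail and Zeb proteins repress Cdh1 and other epithelial genes by binding E-box sequences in their promoters. Undifferentiated mouse ES cells grow as compact epithelial colonies held by E-cadherin, and the transition occurs in the embryo when cells leave the epiblast at gastrulation.

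The E-box bound by Snail and Zeb factors reads CACCTG, or CAGGTG on the other strand. RefSeq promoter windows (build GRCm38.p6, the 250 bases before a transcript start) were read for 5 of the 10 genes. None was at hand for Cdh1, Fn1 and Snai2, and windows of Cdh2 and Zeb1 are not reported here. The windows of Epcam, an epithelial gene, Snai1, a factor gene, and Vim, a mesenchymal gene, are shown for comparison, with the E-box in capitals.
Epcam, chr17:87635729-87635978, plus strand: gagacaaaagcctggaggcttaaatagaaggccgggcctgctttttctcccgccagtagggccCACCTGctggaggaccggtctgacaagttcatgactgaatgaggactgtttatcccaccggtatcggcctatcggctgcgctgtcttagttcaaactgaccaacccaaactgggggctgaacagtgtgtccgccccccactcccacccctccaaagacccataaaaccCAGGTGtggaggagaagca
Snai1, chr2:167537945-167538194, plus strand: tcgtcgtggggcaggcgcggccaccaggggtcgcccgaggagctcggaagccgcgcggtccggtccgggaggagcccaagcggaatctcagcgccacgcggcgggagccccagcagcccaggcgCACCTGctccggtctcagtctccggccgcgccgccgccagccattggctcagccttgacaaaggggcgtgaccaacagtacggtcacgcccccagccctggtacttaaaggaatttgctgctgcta
Vim, chr2:13574061-13574310, plus strand: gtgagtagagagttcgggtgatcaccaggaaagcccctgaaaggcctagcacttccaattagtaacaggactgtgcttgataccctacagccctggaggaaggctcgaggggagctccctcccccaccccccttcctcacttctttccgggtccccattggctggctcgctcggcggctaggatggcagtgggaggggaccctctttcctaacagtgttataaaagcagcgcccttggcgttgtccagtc
The Epcam window held the motif at 2 positions, beginning 187 and 19 bases before the start, and the Snai1 window at 1, beginning 126 bases before it. The windows of Vim and Twist1 and the 4 windows of Zeb2 held none. Of 32851 promoter windows of the same length, 17.2% held the motif at least once and 2.06% at 2 or more positions. These matches describe the letters of the windows, not occupancy by a factor.

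Each signal below is the processed signal of a probe divided by the 75th percentile of its array, here called the scaled signal, and log2 differences are between scaled signals. For each gene the brightest probe is given. Where a probe was not well above background on the dimmer array, the fold is a lower bound, written "at least" and computed against the probe's own signal there or the lowest detected signal of that array, whichever is higher. Such a bound holds for the main processing only, and another background correction can give a smaller fold. Each condition had a single array, so there is no error between replicates and no test, and the number of arrays limits the precision. A difference past 3-fold, the fold used in the study, was counted as a call. Repeated spots give the noise within an array: over probes printed 10 times, the median SD of log2 signal was between 0.071 in EHeD7 and 0.10 in ES. The share of probes well above background was between 54.6% in Hepa1-6 and 67.6% in EHeD7. Hepa1-6 was hybridized on another slide than the other 4 arrays, so slide and line cannot be told apart for Hepa1-6. Pluripotency markers (Pou5f1, Sox2, Zfp42 and Esrrb) were all well above background in ES and the 3 hybrid arrays and none was in Hepa1-6. Of 7 hepatocyte markers, 5 were well above background in Hepa1-6 (not Ttr and Apoa1) and none in EHe. In bulk RNA, fewer cells of a type and less RNA per cell cannot be told apart.

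**Figure D1:**
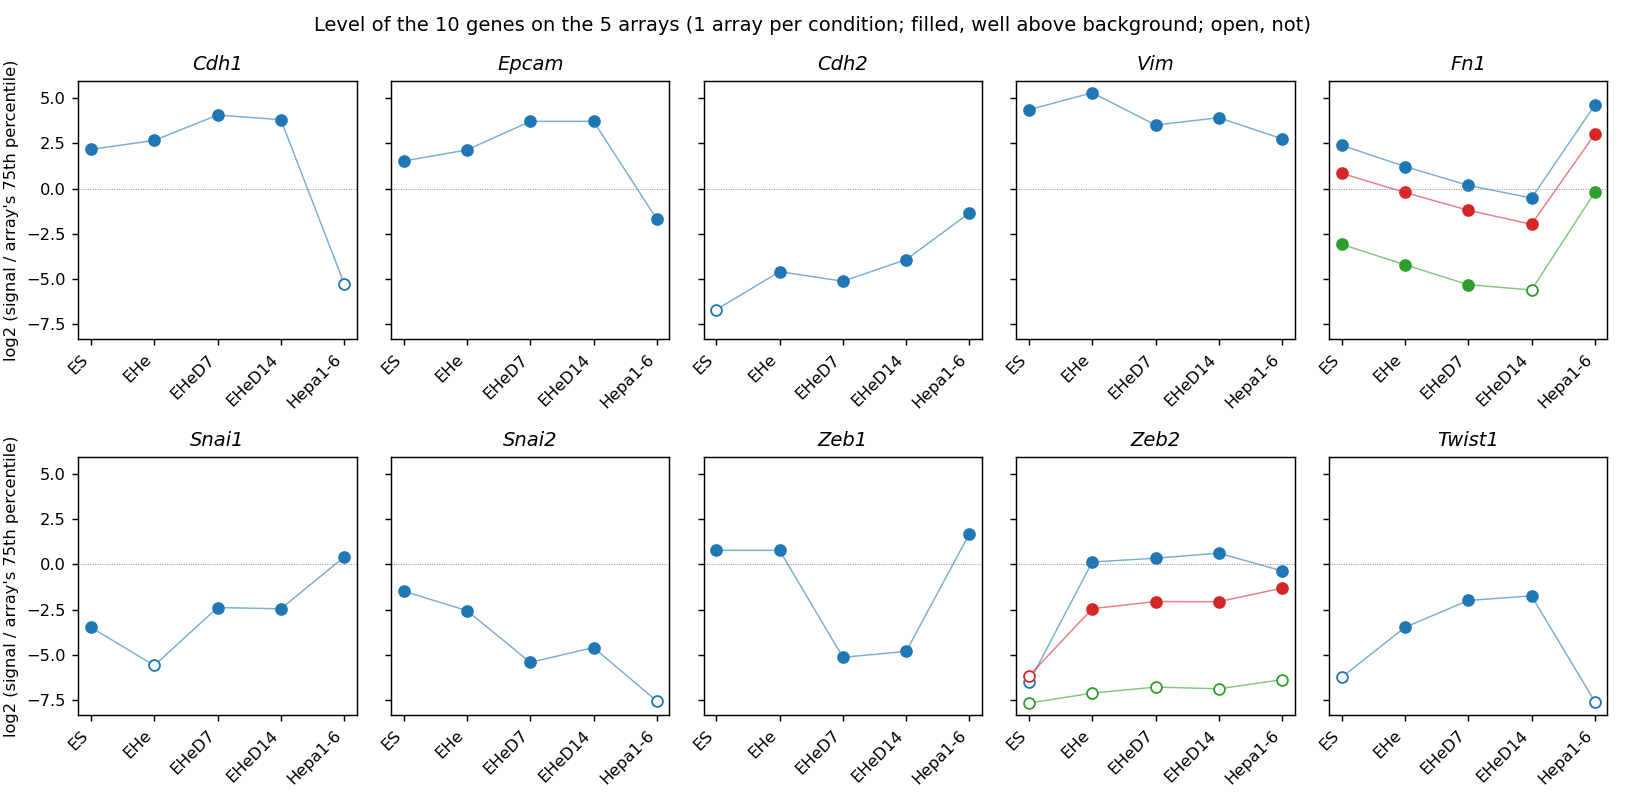
Level of each of the 10 genes on the 5 arrays, as log2 of the signal over the array's 75th percentile. Each point is 1 probe on 1 array, filled where well above background, colours separate the probes of a gene, and lines join arrays only to guide the eye. Cdh1 and Epcam are lowest in Hepa1-6, Zeb1 is low only in EHeD7 and EHeD14, and Zeb2 is low only in ES on its 2 detected probes.

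The epithelial genes Cdh1 and Epcam were high in ES and EHe, higher in the differentiated hybrids and lowest in Hepa1-6. Cdh1 encodes E-cadherin, the adhesion molecule of epithelial junctions. Scaled signals were 4.50 in ES and 6.37 in EHe, 16.8 and 14.1 at days 7 and 14, and 0.0264 in Hepa1-6, where it was not well above background. Cdh1 was thus 1.42-fold higher in EHe than in ES, 2.64-fold higher in EHeD7 than in EHe and 2.21-fold higher in EHeD14 than in EHe. ES exceeded Hepa1-6 at least 170-fold and EHeD14 exceeded Hepa1-6 at least 533-fold. These bounds hold for the main processing only. The normexp background correction reduced the log2 difference of Hepa1-6 from ES to -5.31, from -7.41. With outlier spots kept, described below, both bounds would be lower. Only 0.927% of probes had as wide a range over the 5 arrays as the Cdh1 probe, 9.31 on the log2 scale.

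The Cdh1 probe was printed 10 times on each array, which shows how far its differences stood from spot noise. The spots ran from 4.03 to 5.11 in ES, from 5.90 to 6.99 in EHe, from 16.1 to 18.3 in EHeD7 and from 12.8 to 14.9 in EHeD14, so that spots of different arrays did not overlap. In Hepa1-6 the scanner software marked 4 of the 10 spots as outliers. The other 6 ran from 0.0230 to 0.0348, with 3 of 6 well above background. With all 10 spots kept, an alternative chosen after seeing the data, the mean was 0.0313 and 5 of 10 spots were well above background. These spreads cover the spots of 1 RNA sample and not the spread between cultures.

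**Figure D2:**
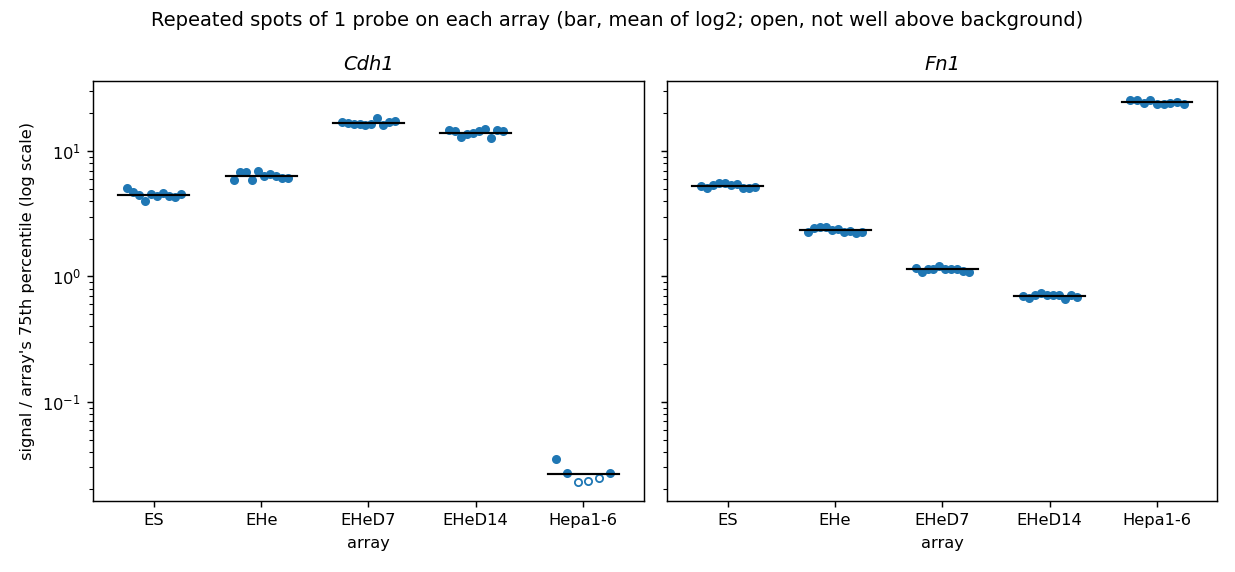
Scaled signal of every kept spot of the Cdh1 probe and of the brightest Fn1 probe on each array, on a log axis, with bars at the mean of log2 and open points where a spot was not well above background. Cdh1 spots of EHeD7 lie between 16.1 and 18.3, above those of EHeD14, EHe and ES, and Fn1 spots step down from ES to EHeD14.

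Epcam encodes an adhesion molecule of epithelial and pluripotent cells. The Epcam probe read 2.88 in ES and 4.42 in EHe, then 13.2 in EHeD7 and 13.2 in EHeD14, against 0.311 in Hepa1-6, and it was well above background on all 5 arrays. Both differentiated arrays lay just under the 3-fold threshold against EHe, at 2.98-fold in EHeD7 and 2.99-fold in EHeD14. The 2 days were 0.01 apart on the log2 scale, less than spot noise. Epcam was 9.27-fold higher in ES than in Hepa1-6 and 42.5-fold higher in EHeD14 than in Hepa1-6. The order of the arrays was that of Cdh1, except that Cdh1 was 1.19-fold lower in EHeD14 than in EHeD7.

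The 3 mesenchymal genes did not share a pattern. Cdh2 encodes N-cadherin, which replaces E-cadherin in many mesenchymal and neural cells. The Cdh2 probe read 0.0097 in ES, not well above background, and 0.0416 in EHe, 0.0289 and 0.0662 at days 7 and 14, and 0.395 in Hepa1-6. The level in Hepa1-6 was at least 16.9-fold that in ES and 5.97-fold that in EHeD14. The normexp background correction reduced the log2 difference of Hepa1-6 from ES to 2.51, from 5.35. The hybrids stood close to the limit of detection, whose scaled signal was 0.0349 in EHe, and the hybrid EHe exceeded ES at least 1.78-fold, a bound below the 3-fold threshold. Against EHe, Cdh2 differed by -0.53 on the log2 scale in EHeD7 and by 0.67 in EHeD14.

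Vim encodes vimentin, the intermediate filament of mesenchymal and many cultured cells. The Vim probe read 20.6 in ES and 39.5 in EHe, then 11.5 in EHeD7 and 15.2 in EHeD14, against 6.77 in Hepa1-6. EHe stood above both parents, at 1.91-fold over ES and 5.83-fold over Hepa1-6. Against EHe, Vim was 3.44-fold lower in EHeD7 and 2.60-fold lower in EHeD14, and all 3 hybrids stayed above Hepa1-6. Its range over the arrays, 2.54 on the log2 scale, was the narrowest of the 10 genes, and 32.7% of probes had a range as wide.

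Fn1 encodes fibronectin, an extracellular matrix protein that hepatocytes also secrete. The brightest Fn1 probe read 5.29 in ES and 2.34 in EHe, 1.14 and 0.698 at days 7 and 14, and 24.5 in Hepa1-6. Every step from ES to EHeD14 was downward, and the 10 spots of neighbouring arrays did not overlap. EHeD14 was 3.35-fold below EHe, 7.58-fold below ES and 35.1-fold below Hepa1-6, while EHeD7 was 2.05-fold below EHe. The other probes of Fn1 gave the same order of the 5 arrays, although the dimmest of them was not well above background in EHeD14. The differentiated hybrids thus stood below both parents for Fn1.

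Against EHe, the differentiated hybrids were higher in Snai1, lower in Snai2 and Zeb1, and within 3-fold in Zeb2. Snai1 encodes Snail, a repressor of Cdh1. The Snai1 probe read 0.0894 in ES and 0.0208 in EHe, not well above background, then 0.192 in EHeD7 and 0.182 in EHeD14, against 1.33 in Hepa1-6. It was highest in Hepa1-6 and lowest in the undifferentiated hybrid. Snai1 in EHeD7 was at least 5.49-fold and in EHeD14 at least 5.23-fold that in EHe, and in Hepa1-6 it was 14.8-fold that in ES. The normexp background correction reduced the log2 difference of EHeD7 from EHe to 1.60, from 3.20, still past the threshold. The ES level was at least 2.56-fold that in EHe, a bound below the threshold.

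Snai2 encodes Slug, a close relative of Snail. Snai2 signals were 0.359 in ES and 0.170 in EHe, 0.0234 and 0.0413 at days 7 and 14, and 0.00532 in Hepa1-6, where it was not well above background. Between the parents its order was the reverse of that of Snai1, as it was at least 14.2-fold higher in ES than in Hepa1-6. The normexp background correction reduced the log2 difference of Hepa1-6 from ES to -2.83, from -6.08. Against EHe, Snai2 was 7.25-fold lower in EHeD7 and 4.11-fold lower in EHeD14. Under the normexp background correction these log2 differences were -1.28 and -1.15, below the threshold. Its excess in EHeD14 over Hepa1-6 was at least 1.63-fold, a bound below the threshold.

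Zeb1 and Zeb2 encode related zinc finger factors that repress Cdh1. The scaled signal of Zeb1 was 1.71 in ES and 1.71 in EHe, then 0.0284 in EHeD7 and 0.0357 in EHeD14, against 3.24 in Hepa1-6. Zeb1 was 60.2-fold lower in EHeD7 and 47.9-fold lower in EHeD14 than in EHe, the largest differences of the 10 genes in those comparisons. It was also 90.8-fold lower in EHeD14 than in Hepa1-6, so that both differentiated arrays stood far below both parents, which were 1.89-fold apart. The low signals were near the limit of detection, and the normexp background correction reduced the log2 difference from EHe to -4.24 in EHeD7 and -3.96 in EHeD14, from -5.91 and -5.58.

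Zeb2 was well above background on every array but ES. Its scaled signal on the brightest probe was 0.0108 in ES, not well above background, and 1.10 in EHe, 1.27 and 1.54 at days 7 and 14, and 0.778 in Hepa1-6. EHe exceeded ES at least 47.0-fold and was 1.41-fold above Hepa1-6. The normexp background correction reduced the log2 difference of EHe from ES to 3.51, from 6.66. EHeD7 was 1.16-fold and EHeD14 1.41-fold above EHe, both within the threshold. A second probe gave 0.0139 in ES, not well above background, and 0.183 in EHe, then 0.241 in EHeD7 and 0.240 in EHeD14, against 0.403 in Hepa1-6. On it EHe exceeded ES at least 7.86-fold, and the 2 probes differed on whether Hepa1-6 or the hybrids were higher. The third probe was not well above background on any array. The pattern of Zeb2 and Cdh2, well above background on every array but ES, was found in 46 of the 18327 named genes, or 0.251%.

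Twist1 encodes a basic helix-loop-helix factor of mesoderm and neural crest. Its scaled signal was 0.0132 in ES and 0.00522 in Hepa1-6, not well above background in either, and 0.0897 in EHe, 0.251 in EHeD7 and 0.299 in EHeD14. It was thus detected in all 3 hybrids and in neither parent, a pattern of 76 named genes, or 0.415%. EHe exceeded ES at least 3.84-fold and Hepa1-6 at least 3.54-fold, but under the normexp background correction the log2 difference from ES was 0.52, below the threshold. Against EHe, Twist1 was 2.80-fold higher in EHeD7 and 3.33-fold higher in EHeD14. With that correction the difference at day 14 was 1.2 on the log2 scale, below the threshold.

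**Figure D3:**
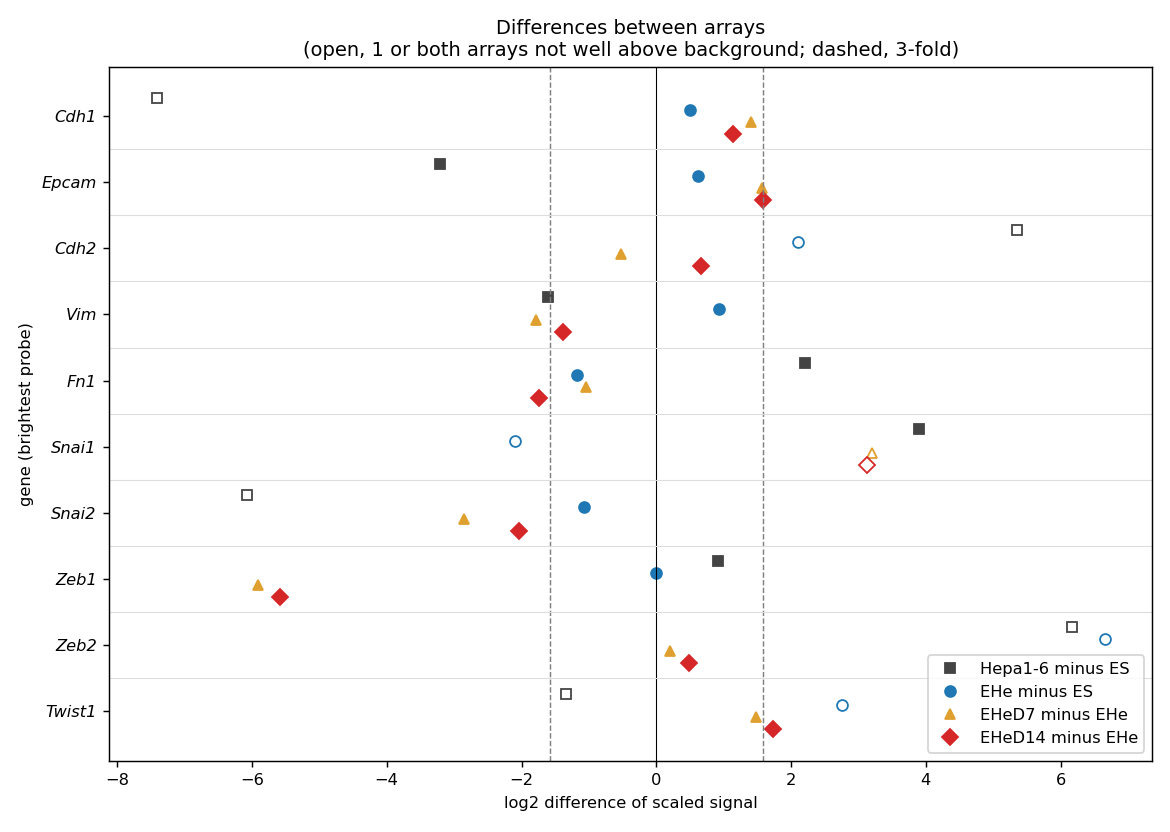
Log2 difference of the scaled signal of each gene's brightest probe in 4 comparisons, with dashed lines at 3-fold and open symbols where at least 1 of both arrays was not well above background. Zeb1 lies at -5.91 and -5.58 in the comparisons of EHeD7 and EHeD14 with EHe, and Zeb2 at 6.66 in that of EHe with ES.

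Between the parents, Hepa1-6 exceeded ES over 3-fold in 4 of the 10 genes (Cdh2, Fn1, Snai1 and Zeb2), against 14.1% of all probes, and was over 3-fold lower in 4 (Cdh1, Epcam, Vim and Snai2), against 23.7%. Vim, at 3.05-fold, was only just past the threshold, and its log2 difference was -1.49 under quantile normalization and -0.80 under median centring, within the threshold. Under median centring Zeb1 passed it, at 1.72. Both epithelial genes were on the ES side, while the mesenchymal and factor genes were on both sides. Otherwise Zeb1 was within 3-fold, and Twist1 was not well above background in either parent.

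Between EHe and ES, 3 genes were over 3-fold higher in EHe (Cdh2, Zeb2 and Twist1; 3.07% of all probes) and 1 was lower (Snai1; 5.43%). The calls of Cdh2 and Snai1 rest on signals below the limit of detection, as their bounds are below 3-fold. The undifferentiated hybrid thus resembled ES in the levels of Cdh1 and Epcam, which were 1.42-fold and 1.53-fold apart, and Hepa1-6 in the presence of Zeb2. Zeb1 was 1.00-fold apart from ES and 1.89-fold from Hepa1-6, and did not separate the parents. In detection, Twist1 and Snai1 matched neither parent, as Twist1 was well above background in EHe alone of the 3 and Snai1 in both parents but not in EHe.

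Between EHeD7 and EHe, 1 gene was over 3-fold higher in EHeD7 (Snai1; 8.00% of all probes) and 3 were lower (Vim, Snai2 and Zeb1; 3.67%). Between EHeD14 and EHe, 2 were higher in EHeD14 (Snai1 and Twist1; 8.18%) and 3 were lower (Fn1, Snai2 and Zeb1; 4.22%). These comparisons share the EHe array. Between EHeD14 and EHeD7 no gene was past 3-fold in either direction, where 0.968% of all probes were higher and 1.42% lower. The widest difference of the 10 genes between the 2 days was that of Cdh2, 2.29-fold.

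Between EHeD14 and Hepa1-6, 4 genes were over 3-fold higher in EHeD14 (Cdh1, Epcam, Snai2 and Twist1; 20.8% of all probes) and 4 were lower (Cdh2, Fn1, Snai1 and Zeb1; 12.6%). Against both parents at once, 3 genes were over 3-fold higher in EHeD14 (Cdh1, Epcam and Twist1; 4.87% of all probes) and 2 were lower (Fn1 and Zeb1; 1.36%). The same 5 genes stood outside both parents in EHeD7, where the shares of all probes were 5.32% and 1.33%. In EHe, Twist1 was above both parents (1.84% of all probes) and Snai1 below both (1.15%), with the bound against ES under 3-fold for Snai1. Against ES alone, EHeD14 was over 3-fold higher in 5 genes (Cdh1, Epcam, Cdh2, Zeb2 and Twist1; 8.71% of all probes) and lower in 3 (Fn1, Snai2 and Zeb1; 7.21%), and EHeD7 was higher in 4 (the same without Cdh2; 9.44%) and lower in the same 3 (6.73%). The Cdh2 call at day 14 has a bound of 2.83-fold. Against Hepa1-6, EHeD7 was higher in 4 genes (Cdh1, Epcam, Snai2 and Twist1; 22.7%) and lower in 4 (Cdh2, Fn1, Snai1 and Zeb1; 12.8%), with no bound above 1-fold for Snai2, and EHe was higher in 5 (Vim besides those 4; 18.7%) and lower in 3 (Cdh2, Fn1 and Snai1; 14.0%). For Cdh1 the excess over ES was 3.73-fold in EHeD7 and 3.13-fold in EHeD14.

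The other genes of the program were counted in lists. Of 27 further genes of epithelial junctions and polarity, 13 were over 3-fold higher in EHeD14 than in EHe and 0 lower, against 8.18% and 4.22% of all probes. The median log2 difference was 1.57, against -0.05 over all detected genes. In EHeD7 the counts were 13 and 0, against 8.00% and 3.67% of all probes, and the median was 1.36. Cldn6, a claudin of tight junctions, had a scaled signal of 0.495 in ES and 0.102 in EHe, 8.36 and 9.38 at days 7 and 14, and 0.00661 in Hepa1-6, where it was not well above background. It was 91.6-fold higher in EHeD14 and 81.6-fold higher in EHeD7 than in EHe. Cldn7, another claudin, was 32.3-fold higher in EHeD14, Marveld3, a tight junction protein, 26.0-fold, and Crb3, a polarity protein of the apical membrane, at least 17.6-fold. The catenins Ctnna1 and Ctnnb1, which link cadherins to the cytoskeleton, were 1.04-fold and 1.05-fold apart.

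All 4 keratins of simple epithelia were over 3-fold higher in EHeD14 than in EHe and also in EHeD7 than in EHe, against 8.18% and 8.00% of all probes. Krt19 had a scaled signal of 0.440 in ES and 0.186 in EHe, then 29.8 in EHeD7 and 36.8 in EHeD14, against 0.0354 in Hepa1-6, so that it stood far above both parents. Krt8 and Krt18, partners in 1 filament, were 77.8-fold and 94.8-fold higher in EHeD14 than in EHe, and Krt7 58.2-fold. Unlike Krt19, these 3 were highest in Hepa1-6, where the scaled signal was 180 for Krt8, 204 for Krt18 and 4.19 for Krt7. EHe itself was over 3-fold below ES in 3 of the 4 keratins, against 5.43% of all probes. The median log2 difference of the keratins in EHeD14 was 6.42 from EHe and 4.12 from ES.

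Of 8 regulators of the epithelial state, 3 were over 3-fold higher and 2 lower in EHeD14 than in EHe, where 8.18% of all probes were higher and 4.22% lower. Esrp1, a splicing factor of epithelial cells, was at least 13.0-fold higher and Grhl2, a factor that sustains epithelial genes, 10.0-fold higher. Klf4 and Klf5, factors of both epithelia and ES cells, were 41.8-fold and 6.53-fold lower. The scaled signal of Klf4 was 45.8 in ES and 49.8 in EHe, 2.89 and 1.19 at days 7 and 14, and 23.3 in Hepa1-6. Klf4 was thus higher in ES, EHe and Hepa1-6 than in both differentiated populations.

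Of 31 mesenchymal effectors (matrix, contractile and protease genes), 16 were over 3-fold higher in EHeD14 than in EHe and 1 lower, with a median log2 difference of 1.84, and 8.18% of all probes were higher and 4.22% lower. In EHeD7, 17 were higher and 2 lower, against 8.00% and 3.67% of all probes. At day 14, 7 of these calls were against an array on which the probe was not well above background, and in 5 of them (Postn, Vcan, Tnc, Col3a1 and Col5a2) the bound was below 3-fold. At day 7 there were also 7 such calls, 3 of them with a bound below 3-fold (Postn, Vcan and Col3a1). Ccn2, a matricellular protein, had a scaled signal of 2.34 in ES and 0.349 in EHe, then 20.1 in EHeD7 and 25.2 in EHeD14, against 89.9 in Hepa1-6. Cnn1, the smooth muscle protein calponin, was 38.2-fold higher in EHeD14 than in EHe, Col1a1, the fibrillar collagen chain, 19.5-fold, and Cd44, the hyaluronan receptor, at least 13.0-fold. Acta2, smooth muscle actin, was 1.02-fold and Sparc, a matrix protein, 1.07-fold apart.

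Of 16 other transcription factors linked to the transition, 3 were over 3-fold higher and 4 lower in EHeD14 than in EHe, with a median log2 difference of 0.03, and the shares of all probes were 8.18% and 4.22%. Of these calls, 4 were against an array on which the probe was not well above background, and in 2 of them (Twist2 and Foxc2) the bound was below 3-fold. Tbx3, a T-box factor of ES cells, was 27.3-fold lower. Snai3, the third Snail gene, was at least 5.73-fold higher, and Twist2 at least 2.75-fold. Of 10 detected ligand and receptor genes out of 12, 4 were over 3-fold higher and 0 lower, against the same 8.18% and 4.22%. They were Tgfb2 (at least 5.72-fold), Tgfb3 (9.05-fold) and Tgfb1 (5.83-fold), ligands that induce the transition, and Met, the receptor of hepatocyte growth factor (4.01-fold). Tgfb3 had a scaled signal of 0.205 in ES and 0.627 in EHe, 4.85 and 5.67 at days 7 and 14, and 0.0586 in Hepa1-6, so that it too stood above both parents.

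**Figure D4:**
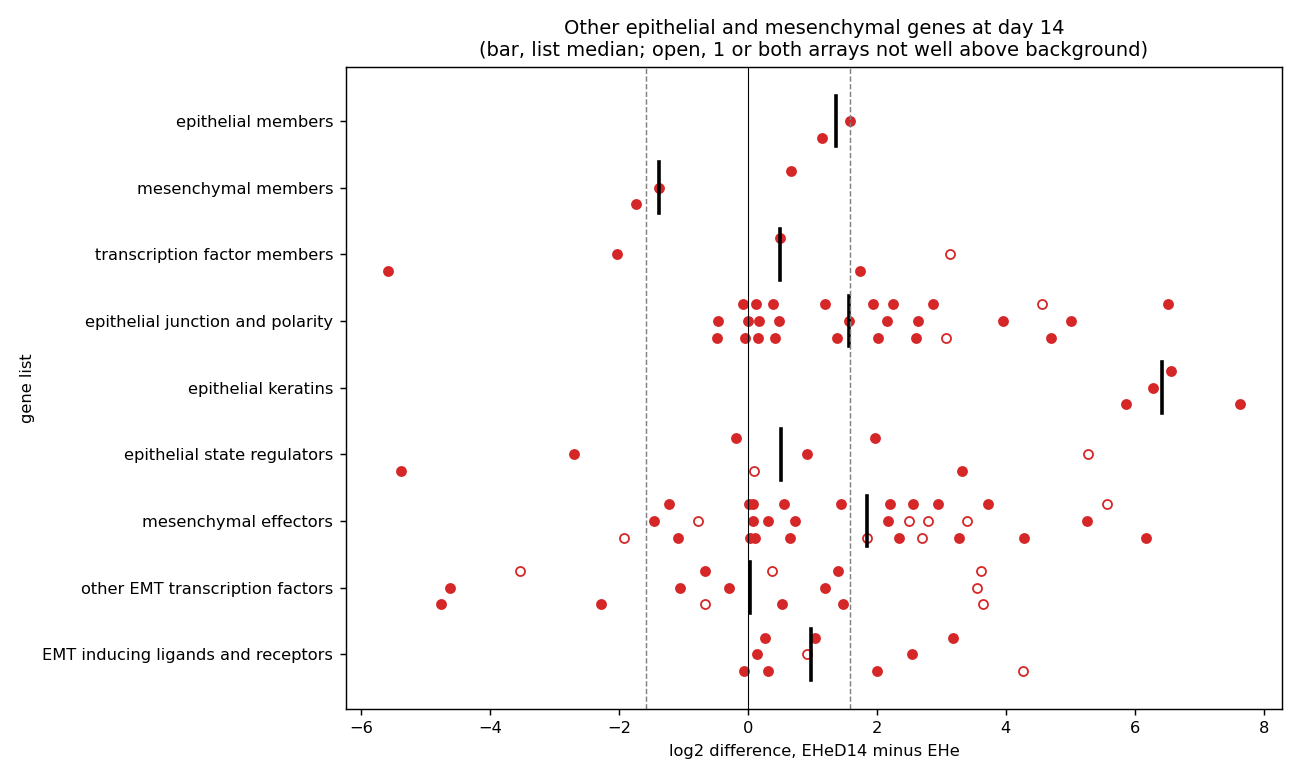
Log2 difference between EHeD14 and EHe for each gene of the lists, with a bar at the list median, dashed lines at 3-fold and open points where at least 1 of both arrays was not well above background. The 4 keratins lie between 5.86 and 7.63, and the lists of junction genes and of mesenchymal effectors have medians of 1.57 and 1.84.

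Levels of markers of other cell types also differed between EHe and the differentiated hybrids. Beside the marker counts past 3-fold in EHeD14 against EHe stand 8.18% of all probes higher and 4.22% lower. Of 5 primitive streak markers, 1 was well above background in EHe and 4 in each of EHeD7 and EHeD14, with summed scaled signals of 0.211, 4.90 and 5.40. T, the brachyury factor of the streak and of early mesoderm, was at least 93.7-fold higher in EHeD14 than in EHe, and Mixl1 was not well above background on any array. Of 7 fibroblast markers, 3 were well above background in EHe and 5 in each of EHeD7 and EHeD14, with summed scaled signals of 0.887, 4.26 and 4.84, and Dcn and Lum, which mark fibroblasts, were not among them. Of 5 trophoblast markers, which include Krt7, 2 were well above background in EHe and 5 on both later days, with summed scaled signals of 9.92, 4.57 and 5.15. At day 14, 4 of the 5 were over 3-fold higher than in EHe and 1 was lower, with a median log2 difference of 4.76, and the lower one, Tfap2c, gave most of the sum in EHe (9.81 in EHe and 0.281 in EHeD14). Of these calls, 3 were against an array on which the probe was not well above background, and for Cdx2 the bound was below 3-fold. Of 5 parietal endoderm markers, 3 were over 3-fold higher in EHeD14 than in EHe, with summed scaled signals of 2.45 in EHe, 11.9 in EHeD7 and 14.0 in EHeD14. Of 5 endoderm markers, 3 were over 3-fold higher in EHeD14, with sums of 0.385, 0.578 and 1.41. Of 5 neural markers, 1 was higher and 3 were lower in EHeD14, with a median log2 difference of -2.49 and sums of 14.5, 13.9 and 13.9. Of the detected neural crest markers 2 of 4 were higher and 1 lower, of the blood markers 1 of 2 was higher, and of the endothelial markers 1 of 2 was lower. The summed pluripotency markers were 95.1 in EHe, 31.8 in EHeD7 and 23.7 in EHeD14. In ES, 5 of 5 endoderm, 4 of 5 primitive streak and 5 of 5 trophoblast markers were well above background. Their summed scaled signals in ES were 3.71, 0.242 and 17.1. Against ES, EHeD14 was over 3-fold higher in 0 endoderm markers and lower in 1, beside 8.71% and 7.21% of all probes. For the streak markers these counts were 3 and 0, and for the trophoblast markers 3 and 1. The part of these cell types in the differences of the 10 genes was not tested.

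For each of the 10 genes, the named genes with the most similar profile over the 5 arrays were found by the root mean square distance between log2 profiles centred on their means. Nearest to Cdh1 were Tspan6 (0.17), Ppp1r1a (0.20) and Cmtm3 (0.21), and nearest to Epcam were Aspg (0.26), Adcy7 (0.29) and Coro1a (0.30). Nearest to Cdh2 were Syde1 (0.30), Ccbe1 (0.32) and Trio (0.41), nearest to Vim were Frat1 (0.18), Ldlrad3 (0.18) and Vpreb3 (0.19), nearest to Fn1 were Bcl2l14 (0.24), Rusc2 (0.28) and Akr1b8 (0.28), and near to Snai1 were Baalc (0.22) and Fos (0.31). Twist1 had Sox11 at 0.18 and Npr3 at 0.23, and Snai2 had Terb2 at 0.04 and Kcnj12 at 0.19. Zeb1 had no gene as near: its closest were Xlr3c (0.53), Rec114 (0.66) and Xlr4b (0.70). Zeb2 had Hprt at 0.31 and then none nearer than 0.90. Among the 10 genes themselves the closest pair was Epcam and Twist1 (0.85) and the farthest was Cdh1 and Zeb1 (5.88). These distances rest on 5 arrays and on signals near the limit of detection where a gene was dim.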

How the data were processed

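Gene expression was measured on 5 single-colour Agilent arrays, 1 per condition, and samples were grouped by their titles. The labels give Cy3 and differentiation in monolayer, whereas the methods name Cy5 and describe embryoid bodies without saying which samples were arrayed. The authors deposited 1 table per array from Agilent Feature Extraction 10.7.3.1 (per the labels). The deposited intensity used is the processed signal of each of 45018 spots, corrected for background by the scanner software and not normalized between arrays. The series table, a second deposited intensity, held the same values, with a largest relative difference of 0. The software's 0 or 1 calls of outlier, saturated and well-above-background spots, deposited by the authors and read as a score, were used too. 0 spots were saturated.

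Control spots and outlier spots (73 to 174 per array) were left out, signals were divided by the array's 75th percentile (1087 in ES to 1456 in Hepa1-6), put on the log2 scale and averaged per probe. A probe was well above background where more than 0.5 of its kept spots were. The 29975 probes so called on at least 1 array formed the background of each count. Probes were named through RefSeq accessions, which named 26888 of 41174 probes. Each gene was read on its probe with the highest mean log2 level. Differences past 3-fold were counted where the probe was well above background on at least 1 of both arrays, with no test. The named genes are all 10 members, the 4 largest differences past 3-fold between EHeD14 and EHe of each list, and the 3 nearest profiles of each member, of which the text gives a part. Some genes that these rules select are not reported here. Other list genes named as small differences, T, and the markers listed by name were chosen after their values were seen. The members and lists were chosen with earlier results of these data known. Spint2, Grhl3, Lox and Nanog were not named on the array here.

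The alternatives were normexp background correction (offset 50, on the median spot signal), quantile normalization, median centring, a 2-fold threshold, the series table, the mean over probes of a gene, only probes well above background on all 5 arrays, and the detection limit in place of dim values. Counts were also made with no filter on dim probes, so without the demand on background. Cdh1 with outlier spots kept was added after seeing the data. The counting was tested on simulated data in which every probe was set well above background, so dim signals were not covered. Python 3.11.15, numpy 2.4.6, pandas 2.3.3, matplotlib 3.10.9, R 4.3.3 and limma 3.58.1 were used.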

Additional observations from a re-analysis of the deposited data

Results flagged for a closer look

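Cdh2 differed from EHe in opposite directions on the 2 days of differentiation, by -0.53 on the log2 scale in EHeD7 and by 0.67 in EHeD14. Each value rests on 1 array, both are within 3-fold, and the difference between the days was not tested. The same signs were found under normexp background correction (-0.26 and 0.21), quantile normalization and median centring.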

How the results depend on the processing

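Of 108 counts of the 10 genes past 3-fold under the alternatives, 90 stayed within 1.5 times the count reported and 18 moved. Of 390 log2 differences of single genes, 263 moved by no more than spot noise (0.12), 127 moved further, and no called difference changed sign. Part of both totals could not move, because the series table held the same values. The filter on all 5 arrays also left log2 differences as they were, and the mean over probes could not change the 8 genes with 1 probe. With no filter on dim probes, every count was the same as that reported. With the filter on all 5 arrays only 4 genes were left, and the counts became 1 higher and 2 lower in Hepa1-6 against ES, 0 and 0 in EHe against ES, 0 higher in EHeD7 and 0 in EHeD14 against EHe, and 1 higher and 2 lower in EHeD14 against Hepa1-6, because fewer genes were counted. Normexp left 1 gene higher (Zeb2) and 0 lower in EHe against ES, and 2 higher in EHeD7 (Epcam and Snai1) and 1 higher in EHeD14 (Snai1) against EHe. Quantile normalization gave 2 higher in EHeD7 against EHe (Epcam and Snai1). Dim values at the detection limit left 0 lower in EHe against ES, and Cdh2 there at 0.83 on the log2 scale. A 2-fold threshold gave 3 lower in EHe against ES, 4 higher in EHeD7 and 4 higher in EHeD14 against EHe, and 1 higher in EHeD14 against EHeD7. Median centring moved the median of all probes from -0.40 to 0.41 on the log2 scale in Hepa1-6 against ES and from 0.29 to -0.51 in EHeD14 against Hepa1-6. For causes other than the construction of the filter and the thresholds, the cause was not tested. No paired analysis was possible because no condition has a second array. Signal over background limits the differences against arrays where a probe was dim: with normexp, Zeb2 in EHe against ES went from 6.66 to 3.51 and Cdh1 in Hepa1-6 against ES from -7.41 to -5.31 on the log2 scale.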
